A study of Mus musculus with 10 samples.

Results

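The immediate early genes examined here were 10 genes taken by symbol from a table of 54347 gene records: Fos, Fosb, Jun, Junb, Egr1, Atf3, Ier2, Nr4a1, Nr4a2 and Nr4a3. They were measured by polyA RNA-Seq in iBAT, the interscapular depot of brown fat that burns lipid to make heat, of 10 mice aged 12 weeks on the C57BL/6N background. Of these mice, 5 carried a CRISPR/Cas9 deletion that removes exon 1 of the long noncoding RNA gene Gm15551 in every cell (ΔGm15551). Their replicate numbers were 1, 2, 4, 5 and 7. The other 5 were wild type, with the numbers 2, 3, 5, 6 and 7. All 10 mice were housed singly at 4 °C for 24 h before dissection, so the cold exposure is shared by both genotypes and no mouse kept in the warm was compared here. The deletion is a single engineered allele. The comparison asks whether the transcriptome of cold-activated iBAT differs without the lncRNA.

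Immediate early genes are transcribed within minutes of a stimulus, without new protein synthesis, from promoters on which factors such as CREB and the serum response factor already sit. Most encode transcription factors that pass the signal on to later genes, and their RNAs are short-lived. In brown fat, noradrenaline released in the cold acts on β-adrenergic receptors and raises cAMP, which activates protein kinase A and CREB, and the NR4A receptors are among the genes known to follow that signal. The same genes also answer growth factors, stretch, stress and the handling of tissue.

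The 3 NR4A genes and Fos are shown first by the bases upstream of their start sites, since the number of core sites for CREB is the feature in which the NR4A promoters differed from most others. The sequences are from RefSeq on GRCm38.p6, run 5′ to 3′ on the strand of the gene, and end at the base before the RefSeq start, except for Nr4a3, where the last part of the window was left out because GENCODE places an exon there. The window of Nr4a1 lies inside its GENCODE gene, which runs from 101254269 to 101274795, so it precedes a start within that gene. The same holds for the window of Atf3, counted below. None of the bases printed lie in an annotated exon. Capitals mark the core of the cAMP response element (CRE), TGACG, or its reverse complement CGTCA where the site faces the other way.
Nr4a1, chr15:101266596-101266845, plus strand: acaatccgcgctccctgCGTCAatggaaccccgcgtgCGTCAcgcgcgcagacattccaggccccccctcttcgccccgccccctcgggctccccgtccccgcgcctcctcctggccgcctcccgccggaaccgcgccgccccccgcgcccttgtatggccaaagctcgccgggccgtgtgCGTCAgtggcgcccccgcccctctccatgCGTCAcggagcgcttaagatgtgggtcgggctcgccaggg
Nr4a2, chr2:57124004-57124253, minus strand: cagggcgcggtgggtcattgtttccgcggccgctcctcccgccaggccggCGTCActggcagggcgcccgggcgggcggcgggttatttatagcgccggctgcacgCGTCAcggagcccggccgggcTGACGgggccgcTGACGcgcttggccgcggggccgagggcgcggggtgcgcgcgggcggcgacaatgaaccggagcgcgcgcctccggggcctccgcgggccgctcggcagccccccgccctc
Nr4a3, chr4:48045055-48045152, plus strand: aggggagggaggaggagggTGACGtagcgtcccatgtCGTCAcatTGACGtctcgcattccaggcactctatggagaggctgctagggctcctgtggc
Fos, chr12:85473640-85473889, plus strand: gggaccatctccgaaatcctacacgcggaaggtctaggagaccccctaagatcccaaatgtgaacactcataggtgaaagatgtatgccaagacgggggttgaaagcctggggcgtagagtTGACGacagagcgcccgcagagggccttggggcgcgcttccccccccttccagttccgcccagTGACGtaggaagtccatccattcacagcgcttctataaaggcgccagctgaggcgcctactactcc

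Nr4a1, Nr4a2 and Nr4a3 each held 4 core sites in the 250 bases upstream of the RefSeq start, of which 3 of the 4 in Nr4a3 lie in the bases printed. Of all 32851 promoters in the table, 0.137% held 4 or more and 17.8% held at least 1. Fos held 2, Fosb, Junb and Atf3 held 1 each, and Jun held 0, so 7 of the 8 genes present in the table had at least 1. Egr1 and Ier2 were not among the promoters used here. The full CRE, the palindrome TGACGTCA, which would count as a core site on each strand, was found in 0 of the 8 (1.55% of all promoters). The EGR site GCGNGGGCG was found in Fosb, Nr4a1 and Nr4a2 (4.70% of all promoters). The AP-1 site TGANTCA (6.75%) and the CArG box bound by the serum response factor (1.47%) were found in 0 of the 8 within these 250 bases. Bases farther upstream were not searched, so these genes cannot be said to lack either site. Both strands were searched in every case. A match describes the letters of the window and not the binding of a factor.

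The libraries held 9680976 to 15771170 counts per mouse. Gm15551 had 0 counts in all 5 ΔGm15551 mice, and 1, 2, 6, 7 and 0 counts in wild type replicates 2, 3, 5, 6 and 7, so this gene did not separate wild type replicate 7 from the ΔGm15551 mice. The brown adipocyte markers (8 of 8 tested, among them Ucp1) summed to 23441 to 27890 CPM (counts scaled to a common library size) in ΔGm15551 and 23468 to 25761 CPM in wild type. Skeletal muscle markers were also present, at 30.1 to 1984 CPM in ΔGm15551 and 36.2 to 3190 CPM in wild type, and 6 of these 10 genes had 0 counts in at least 1 mouse. Of the 10 members, 9 passed the filter on low counts, and Fosb did not.

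Levels per kilobase of exon gave the order of the 10 genes in cold-exposed iBAT. Ier2, a small nuclear protein of the early response, stood first at 13.8 ± 3.14 CPM per kb (SD, n = 10), followed by Jun, the leading partner of FOS in the AP-1 dimer, at 12.8 ± 3.0 CPM per kb. The nuclear receptors Nr4a1 and Nr4a2 followed at 9.55 ± 5.43 and 7.04 ± 2.12 CPM per kb, Junb at 6.65 ± 1.06 and the stress-responsive factor Atf3 at 4.62 ± 0.861 CPM per kb. These 6 genes lay above the median of all genes tested with a length, 3.14 CPM per kb. Egr1, a zinc finger factor, at 1.36 ± 1.05, Nr4a3 at 0.792 ± 0.316, Fos at 0.649 ± 0.207 and Fosb at 0.0963 ± 0.128 CPM per kb lay below it. Among the FOS and JUN members, Jun and Junb were thus the abundant RNAs, and Fos, with 12 to 30 counts per mouse, was at the 16.4th percentile of the genes tested. The ranges of all neighbours in this order overlapped. Junb was above Atf3, Atf3 above Egr1 and Fos above Fosb in 10 of 10 mice, whereas Nr4a2 was above Junb in only 5 of 10.

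**Figure D1:**
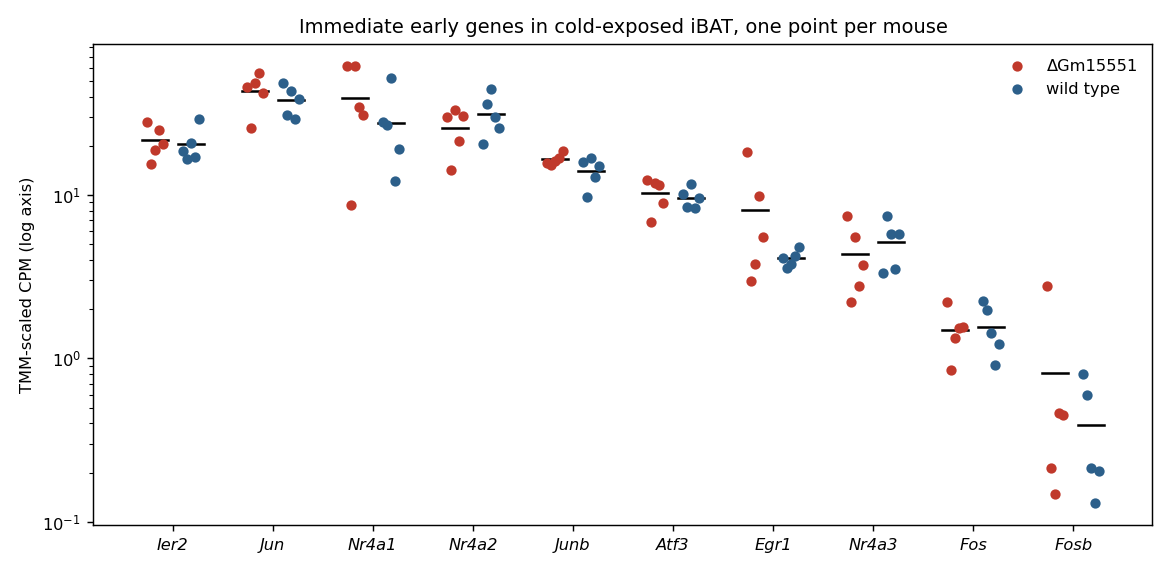
CPM scaled by TMM (log axis) of the 10 immediate early genes, ordered by level per kb, with 1 point per mouse, ΔGm15551 in red and wild type in blue, and a bar at each genotype's mean. The genotypes overlap for all 10 genes, and single ΔGm15551 mice stand high for Egr1 (18.3 CPM) and Fosb (2.79 CPM) and low for Nr4a1 (8.67 CPM).

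In the genotype comparison, 0 of the 9 tested members had an adjusted p under 0.05, and the same held for 0 of all 13732 genes tested (0%). By edgeR's quasi-likelihood test with Benjamini-Hochberg adjustment over all genes, the adjusted p of each member was 0.999809. At an unadjusted p under 0.05, 1 of the 9 members (Egr1) and 219 of all genes (1.59%) were found. The genotypes did not overlap in 0 of the 9 tested members, against 44 of all genes tested (0.32%). Of the 9 log2 fold changes (log2FC, ΔGm15551 over wild type), 6 were above 0 and 3 below, with a median of 0.09, beside -0.00087 over all genes. This median lay between 0.02 and 0.21 when 1 mouse was left out, and it turned to -0.21 over the 6 mice that share replicate numbers between genotypes, so its direction was not stable. The median absolute log2FC was 0.23 over the 9 members and 0.09 over all genes, and Fos, Ier2 and Atf3 lay nearer to 0 than the latter. The 95% confidence interval lay wholly between -1 and 1 for 7 of the 9 members, and Egr1 and Nr4a1 were the exceptions. In bulk tissue, fewer cells of a type and less RNA per cell cannot be told apart.

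**Figure D2:**
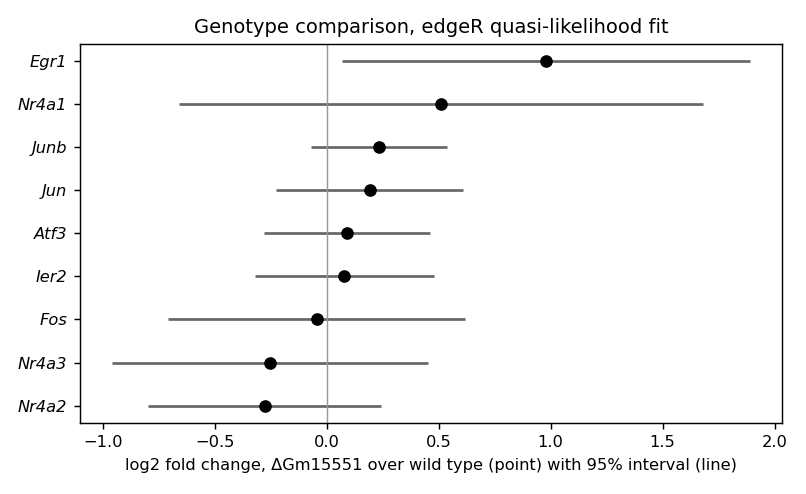
log2FC of the 9 tested members, ΔGm15551 over wild type (points), with 95% confidence intervals (lines) from the edgeR fit. All intervals but that of Egr1 (0.07 to 1.89) include 0, and the widest is that of Nr4a1 (-0.66 to 1.68).

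The FOS genes encode the AP-1 partners that cannot pair with each other and need a JUN protein. Fos (ENSMUSG00000021250.13, chromosome 12, 85473890 to 85477273, plus strand) was at 2.20, 0.85, 1.34, 1.53 and 1.57 CPM in ΔGm15551 replicates 1, 2, 4, 5 and 7, and at 2.24, 1.97, 1.43, 0.91 and 1.23 CPM in wild type replicates 2, 3, 5, 6 and 7, the order used for every gene that follows. The genotypes overlapped across nearly their whole ranges, and the log2FC was -0.05 (SE 0.31). The 3 wild type mice with mouse numbers above 1000 had a mean of 1.19 CPM, below the 2.10 CPM of the other 2 wild type mice. Every ΔGm15551 mouse was numbered below 1000, so genotype and number series cannot be fully told apart. Without those 3 wild type mice the log2FC of Fos was -0.48 (SE 0.38, unadjusted p = 0.225, adjusted p = 0.999, edgeR). Fosb (ENSMUSG00000003545.3, chromosome 7, 19302696 to 19310051, minus strand) was near the limit of detection, at 2.79, 0.213, 0.149, 0.460 and 0.447 CPM in ΔGm15551 and at 0.806, 0.60, 0.215, 0.130 and 0.205 CPM in wild type. ΔGm15551 replicate 1 held 38 counts, an exact Poisson interval of 1.97 to 3.83 CPM that covers counting error only, whereas the other 9 mice held 2 to 9. Without the filter on low counts, the log2FC of Fosb was 1.06 (SE 0.80, unadjusted p = 0.212, adjusted p = 0.835 in edgeR's quasi-likelihood test). When the same 3 wild type mice were left out, it passed the filter, at 0.21 (SE 1.02, unadjusted p = 0.837, edgeR).

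The JUN genes encode the other partner of AP-1 and can also pair among themselves. Jun (ENSMUSG00000052684.4, chromosome 4, 95049034 to 95052222, minus strand) was at 45.9, 25.8, 48.1, 55.8 and 42.0 CPM in ΔGm15551 and at 48.2, 31.0, 43.3, 29.2 and 38.8 CPM in wild type. The lowest and the highest mouse were both ΔGm15551, and the log2FC was 0.19 (SE 0.19). Junb (ENSMUSG00000052837.7, chromosome 8, 84974484 to 84978718, minus strand), a weaker activator than JUN, was at 15.8, 15.2, 16.2, 17.0 and 18.5 CPM in ΔGm15551 and at 15.9, 9.76, 16.7, 12.8 and 15.1 CPM in wild type. Its highest mouse was 1.89-fold above its lowest, and 2 ΔGm15551 mice lay above all wild type mice (log2FC 0.23, SE 0.14, unadjusted p = 0.122, edgeR). Exons of Junos lie opposite those of Jun, and exons of Prdx2 opposite those of Junb, and since it is not stated whether the counting used the strand, reads of these partners may be among the counts. Atf3 (ENSMUSG00000026628.13, chromosome 1, 191170296 to 191218039, minus strand), which pairs with JUN proteins and often represses, was at 12.3, 6.82, 11.8, 11.6 and 8.87 CPM in ΔGm15551 and at 10.2, 8.48, 11.7, 8.27 and 9.55 CPM in wild type (log2FC 0.09, SE 0.17).

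Egr1 (ENSMUSG00000038418.7, chromosome 18, 34859823 to 34864984, plus strand), a target of the ERK and serum response factor pathway, had the greatest log2FC of the 9. It was at 18.3, 2.98, 3.79, 9.90 and 5.52 CPM in ΔGm15551 and at 4.12, 3.60, 3.79, 4.23 and 4.83 CPM in wild type. Wild type mice lay within 3.60 to 4.83 CPM, 3 ΔGm15551 mice lay above all of them, and 1 lay below all of them. The log2FC was 0.98 (SE 0.42, 95% confidence interval 0.07 to 1.89, unadjusted p = 0.0375, adjusted p = 0.999809, edgeR). Without ΔGm15551 replicate 1 it was 0.43 (unadjusted p = 0.173), and over all 10 mice limma-voom gave 0.66 (unadjusted p = 0.169). Ier2 (ENSMUSG00000053560.5, chromosome 8, 84661331 to 84662852, minus strand) was at 27.8, 15.5, 19.0, 25.1 and 20.4 CPM in ΔGm15551 and at 18.5, 16.6, 20.7, 17.2 and 29.3 CPM in wild type. Its highest mouse was wild type and its lowest ΔGm15551, and the log2FC was 0.08 (SE 0.18).

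The NR4A genes encode orphan nuclear receptors that act without a known hormone and are regulated mainly by how much is made. Nr4a1 (ENSMUSG00000023034.7, chromosome 15, 101254269 to 101274795, plus strand) was at 61.3, 8.67, 61.7, 34.7 and 30.7 CPM in ΔGm15551 and at 27.9, 27.0, 51.9, 12.2 and 19.1 CPM in wild type. Both genotypes spanned several-fold ranges, and the highest of the 10 mice was 7.12-fold above the lowest, so a log2FC of 0.51 came with an SE of 0.52. Nr4a2 (ENSMUSG00000026826.13, chromosome 2, 57106830 to 57124003, minus strand) was at 30.1, 14.1, 33.1, 21.4 and 30.6 CPM in ΔGm15551 and at 20.4, 36.1, 44.2, 30.1 and 25.6 CPM in wild type. Nr4a3 (ENSMUSG00000028341.9, chromosome 4, 48045153 to 48086447, plus strand) was at 7.41, 2.20, 5.51, 2.76 and 3.73 CPM in ΔGm15551 and at 3.31, 7.45, 5.79, 3.52 and 5.75 CPM in wild type. Their log2FC were -0.28 (SE 0.24) and -0.25 (SE 0.33), opposite in sign to that of Nr4a1, and none of the 3 differed beyond the spread between mice. Over only the 6 mice that share replicate numbers between genotypes, Nr4a3 was at -0.77 (SE 0.31, unadjusted p = 0.0302, adjusted p = 0.964, edgeR), and Nr4a1 turned to -0.43 (SE 0.62), so that the 3 genes shared a sign there.

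The spread between mice of 1 genotype was above that of the median gene for 8 of the 9 members, all but Junb (SD of log2 CPM 0.233). The median SD of log2 CPM within a genotype was 0.457 over the 9 members and 0.269 over all genes tested. Nr4a1 (98.1st percentile), Egr1 (96.5th) and Nr4a3 (92.4th) were among the most variable genes, which by construction hold 10% of all genes, and 5 of the 9 were in the most variable 20%. Low counts alone give a gene a higher SD, so the biological coefficient of variation (BCV), which leaves counting error out, was set beside its trend at the same level. It lay above the trend for 6 of the 9 members and for 24.1% of all genes. For Nr4a1 it was 0.558 against a trend of 0.201, for Egr1 0.453 against 0.268, and for Nr4a2 0.275 against 0.202. For Junb, Atf3 and Fos it lay below the trend, at 0.166 against 0.207, 0.200 against 0.231, and 0.288 against 0.325.

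**Figure D3:**
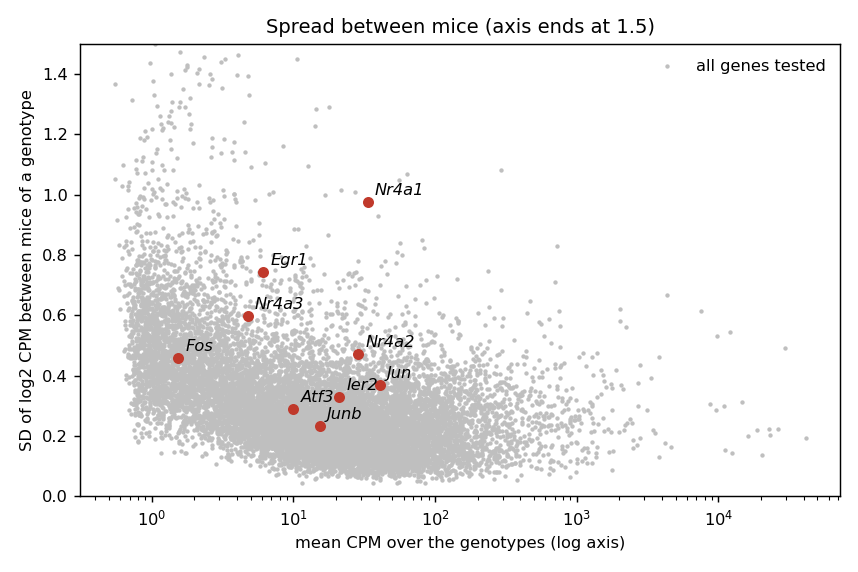
SD of log2 CPM between mice of a genotype against mean CPM (log axis) for all genes tested (grey) and the 9 tested members (red). Nr4a1, at the 98.1st percentile of SD, stands above nearly all genes of its level, whereas Junb and Atf3 lie within the grey cloud.

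Single mice stood at the ends of several genes at once. ΔGm15551 replicate 2 was the lowest of the 10 mice for 8 of the 10 members (Fos, Jun, Egr1, Atf3, Ier2, Nr4a1, Nr4a2 and Nr4a3). The share of all genes tested that were lowest in this mouse is not given here. The count therefore does not set the members apart from other genes of this library. For 0 of the 9 tested members was this mouse above the median mouse, and the mean of its standardised values was -1.43. It had the highest Ucp1 of the 10 mice (10990 CPM), and it was also highest for the chaperone genes Hspa8, Hsph1, Dnajb1, Dnaja1 and Hspd1 and for the adipocyte genes Plin1 and Ebf2. The other heat shock genes, Hspa1a, Hspa1b, Hspb1, Hsp90aa1, Hspe1 and Bag3, were highest in other mice. So were the other brown adipocyte markers, Cidea, Adipoq, Fabp4, Pparg and Prdm16. Whether the genes highest in this mouse had a part in its low values was not tested. Wild type replicate 6 was next lowest, at -0.79. ΔGm15551 replicate 1 was the highest at 1.07, and it led for Fosb, Egr1 and Atf3. The highest and the lowest mouse were thus both ΔGm15551. Across the mice this mean had a correlation of -0.20 with the total count and of 0.41 with the number of genes with a count (22507 in ΔGm15551 replicate 1, the most of all mice, and 21454 in replicate 2), a description over 10 points. ΔGm15551 replicate 1 also had the highest sum of endothelial markers (1670 CPM) and the lowest Ucp1 (5747 CPM) of the 10 mice. Its sum of brown adipocyte markers (23441 CPM) was the lowest, but only just below the 23468 CPM of the lowest wild type mouse. In ΔGm15551 replicate 1, Fabp4 (13654 CPM) and Cidea (2496 CPM) lay above both genotype means. Ucp1, Plin1, Pparg, Prdm16 and Ebf2 lay below both, and Adipoq lay between them. The part of these in its values was not tested.

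**Figure D4:**
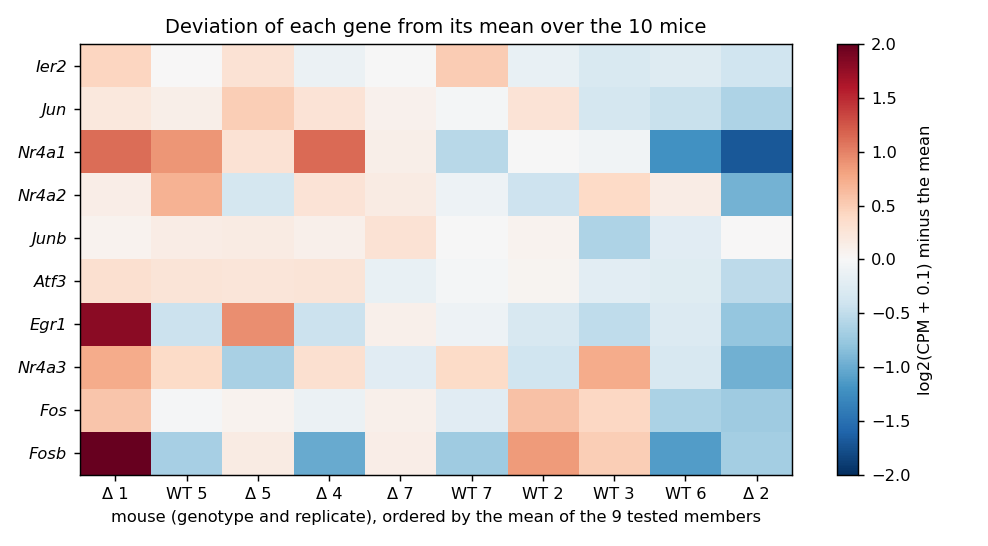
Deviation of log2(CPM + 0.1) from the gene's mean over the 10 mice (red above, blue below), with genes in rows and mice in columns, Δ for ΔGm15551 and WT for wild type with the replicate number, ordered from the highest to the lowest mean of the 9 tested members. The column of ΔGm15551 replicate 2 at the right is below the mean for all genes but Junb, and ΔGm15551 mice hold both ends of the order.

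Whether the members were high in the same mice was tested over all 36 pairs of the 9 tested genes. Atf3 and Nr4a1 varied together (Pearson r = 0.908, permutation p = 0.00022, adjusted p = 0.00684; Spearman rho = 0.927, permutation p = 0.00035, adjusted p = 0.0126). The same held for Jun and Atf3 (r = 0.886, permutation p = 0.00038, adjusted p = 0.00684), whose rho of 0.794 missed the threshold (permutation p = 0.00888, adjusted p = 0.15). These were 2 of 36 pairs, and 1.22% of all pairs of genes tested had an absolute r at least as high as the weaker of them. An r of at least 0.8 was reached by 2 of the 36 (5.56%) and by 2.44% of all pairs. The sign was shared more widely, with r above 0 for 33 of the 36 against 49.9% of all pairs, and with a median r of 0.47 against -0.001. That median was 0.33 without ΔGm15551 replicate 2 and 0.28 after the linear fit of each member on skeletal muscle markers, where the lowest r was -0.63. Without the 2 mice farthest from the median of the gene named first, r was 0.804 for Atf3 and Nr4a1 and 0.740 for Jun and Atf3. Without ΔGm15551 replicate 2 alone, 0 pairs passed, with r = 0.845 and 0.813 (both with an adjusted p of 0.102 by exact permutation test).

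Several further pairs had high values that missed the threshold. Nr4a2 and Nr4a3 had r = 0.777 (permutation p = 0.0069, adjusted p = 0.0631, rho = 0.733), and Egr1 and Ier2 had r = 0.735 (permutation p = 0.0136, adjusted p = 0.0982, rho = 0.745). Without the 2 mice farthest from the median of the gene named first, these r were 0.567 and 0.648. Without ΔGm15551 replicate 2 alone, they were 0.643 and 0.690. Jun and Nr4a1 had r = 0.793 (permutation p = 0.00701, adjusted p = 0.0631), which fell to 0.422 without the 2 mice farthest from the median of Jun. The lowest r of the 36 was that of Junb with Nr4a3, at -0.34. Without wild type replicate 7, Egr1 and Ier2 also passed (r = 0.922, adjusted p = 0.0105 by exact permutation test).

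**Figure D5:**
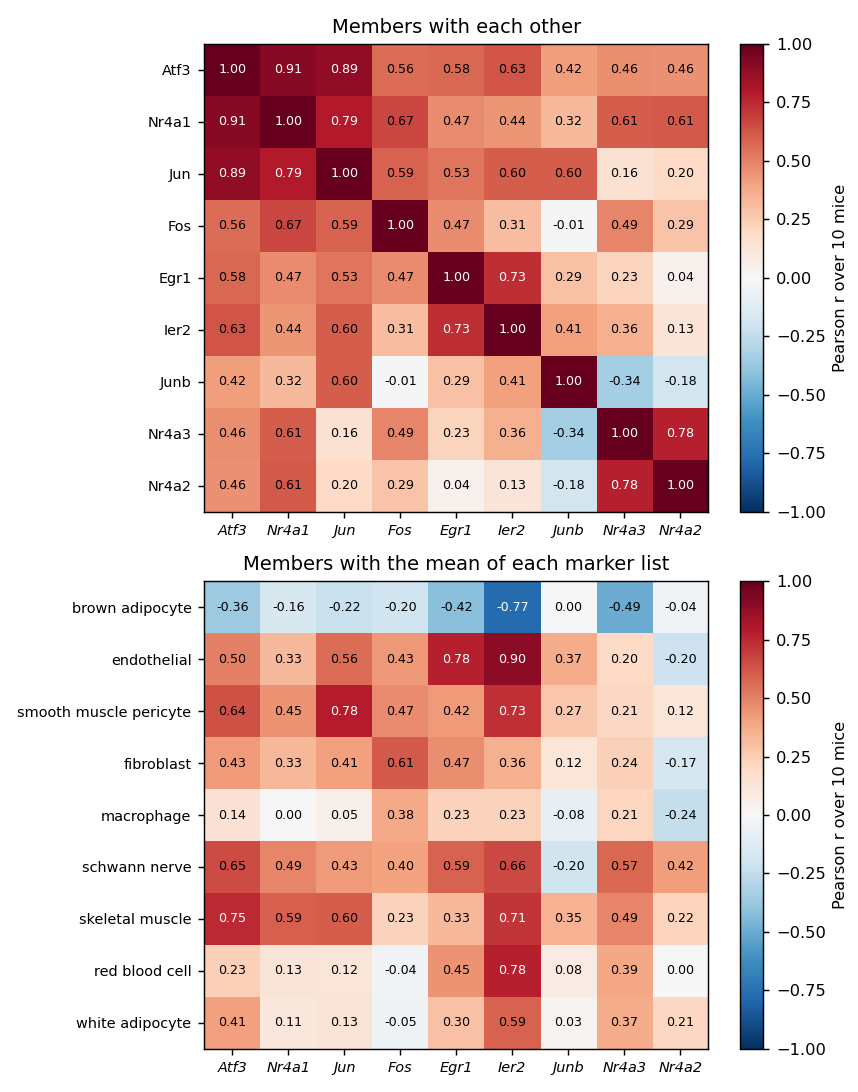
Pearson r of log2 CPM over the 10 mice, for the 9 tested members with each other (upper panel) and with the mean of each marker list (lower panel), with red for positive and blue for negative values. Atf3, Nr4a1 and Jun form the darkest block (0.79 to 0.91), Nr4a2 and Nr4a3 stand together at 0.78, and Ier2 has its highest marker value with the endothelial list at 0.90.

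Markers of cell types that iBAT samples can hold were set beside the members, as 9 lists with 9 members. Of these 81 correlations, 11 had an unadjusted permutation p under 0.05 and 0 an adjusted p under 0.05, by r or by rho. The highest was that of Ier2 with the endothelial markers (r = 0.898, permutation p = 0.00109, adjusted p = 0.0883; rho = 0.758, permutation p = 0.015, adjusted p = 0.358; r = 0.742 without the 2 mice farthest from the median of the markers). Ier2 accounted for 6 of the 11, the others being red blood cell (r = 0.781), brown adipocyte (-0.768), smooth muscle and pericyte (0.733), skeletal muscle (0.712) and Schwann cell and nerve markers (0.664), with adjusted permutation p from 0.141 to 0.339. Without the 2 mice farthest from the median of each list, the brown adipocyte value went to -0.137, and the other 4 lay between 0.616 and 0.779. Egr1 had r = 0.781 with the endothelial list (permutation p = 0.00733, adjusted p = 0.141; rho = 0.709, permutation p = 0.0265, adjusted p = 0.358). Atf3 had r = 0.749 with the skeletal muscle markers (permutation p = 0.0159, adjusted p = 0.184; rho = 0.721, permutation p = 0.0237, adjusted p = 0.358), which became 0.909 without the 2 mice farthest from their median. Its values with Schwann cell and nerve markers (0.655) and with smooth muscle and pericyte markers (0.638) went to 0.311 and 0.195 in the same way. The endothelial markers summed to 991 to 1670 CPM in ΔGm15551 and 938 to 1576 CPM in wild type, with all 8 counted in every mouse. Jun had r = 0.782 with the smooth muscle and pericyte markers (permutation p = 0.0057, adjusted p = 0.141; rho = 0.806, permutation p = 0.00715, adjusted p = 0.358), but 0.466 without the 2 mice farthest from their median. Macrophage markers summed to 51.5 to 94.4 CPM in ΔGm15551 and 59.0 to 104 CPM in wild type, and none of the members had an unadjusted p under 0.05 with them.

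The pairs were therefore computed again after a linear fit of each member on a marker list, an alternative chosen after seeing the data. After the fit on skeletal muscle, 0 of 36 pairs passed, with r = 0.869 for Atf3 and Nr4a1 and 0.823 for Jun and Atf3 (permutation test, adjusted p = 0.0547 for both). After the fit on endothelial markers, 3 passed, and the r of Egr1 and Ier2 went from 0.735 to 0.123. That of Nr4a2 and Nr4a3 went from 0.777 to 0.852, past the threshold (permutation test, adjusted p = 0.0119). These values do not say in which cells the members were transcribed.

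Other genes of the early response were then read from fixed lists, of which 0 genes had an adjusted p under 0.05. Of 8 further AP-1 genes, 5 were tested, all with a log2FC above 0 (Maff highest at 0.23, Jdp2 lowest at 0.01), and Jund was the most abundant at 54.6 CPM per kb, above all 10 members. Of 14 other early transcription factors, 11 were tested, 5 above 0 and 6 below. Nfil3, a bZIP repressor, was at 20.7 ± 5.43 CPM in ΔGm15551 mice and 12.9 ± 5.29 CPM in wild type mice (SD, n = 5 each; log2FC 0.69, SE 0.26, unadjusted p = 0.018, edgeR). Myc was lowest at -0.29, and Klf4 most abundant at 20.9 CPM per kb. Of 25 early genes that encode no transcription factor, 23 were tested, 13 above 0 and 10 below, from Ier3 at 0.49 to Dusp6, an ERK phosphatase, at -0.24, and Gadd45g was the most abundant at 124 CPM per kb.

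Some of these genes followed the members across the mice. A correlation of at least 0.6 with the mean of the standardised members, given as a description, was reached by 9.38% of all genes tested. Among early genes that encode no transcription factor it was reached by 8 of 23, among them Arc (0.90), Ccn1 (0.88), a secreted matrix protein, and Dusp1 (0.75), a phosphatase that ends MAP kinase signalling. It was reached by 2 of 11 early transcription factors and by Maff (0.84) alone among 5 AP-1 genes. Gadd45a, at -0.62, went the other way. Without ΔGm15551 replicate 2, Arc (0.79), Ccn1 (0.77), Socs3 (0.68) and Maff (0.78) stayed at 0.6 or above. Dusp1 (0.54), Nfkbia (0.48), Sgk1 (0.45), Klf6 (0.43), Klf4 (0.41), Sik1 (0.38) and Ccn2 (0.36) fell below it. Nfil3 rose to 0.73, and Gadd45a went to -0.54. The genes named for these values were chosen after the values were seen. The same level of 0.6 was reached by 9 of 10 skeletal muscle, 3 of 4 Schwann cell and nerve, 4 of 8 endothelial and 2 of 7 smooth muscle and pericyte markers. Without ΔGm15551 replicate 2, all Schwann cell and nerve (highest 0.47) and all smooth muscle and pericyte values (highest 0.44) were below 0.6. Mylpf (0.58) and Myh1 (0.55) of muscle and Cdh5 (0.59) and Emcn (0.55) of endothelium fell below it, and endothelial Cldn5 rose to 0.67. The part of these cells in the shared pattern was not tested beyond the fits above.

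The genes outside the members' own list with the highest such correlation were Impdh2 (0.94), which makes guanine nucleotides, Gm42765 (0.93), Rom1 (0.93), BC028528 (0.92), Tead4 (0.92), Tmem242 (0.92), Pold3 (0.91), Plaur (0.91), Cenpo (0.91) and Zeb1 (0.91), over 10 mice. Without ΔGm15551 replicate 1 they lay between 0.87 and 0.93, and without replicate 2 between 0.82 and 0.88. Chosen after their values were seen, the nearest partners of Ier2 were Hspa12b (0.99), Nova2 (0.98) and Adcy4 (0.98).

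The routes that lead to these genes were tested as RNA only. In the cAMP list 17 of 17 genes were tested, 9 above 0 and 8 below. For 0 of them was the correlation with the mean of the members at least 0.6, and for 3 (Prkaca at -0.70, Prkar2b at -0.65 and Adcy9 at -0.61) it was at most -0.6, a level that 9.19% of all genes tested reached. Adrb3, the β3-adrenergic receptor, had 198 ± 33.1 CPM in ΔGm15551 mice against 140 ± 16.1 CPM in wild type mice (SD, n = 5 each; log2FC 0.50, SE 0.13, unadjusted p = 0.00254, adjusted p = 0.999809, edgeR), Adcy3 was lowest at -0.15, and Gnas most abundant at 308 CPM per kb. In the MAP kinase and serum response factor list 17 of 18 were tested, again 9 above 0 and 8 below, from Srf at 0.15 to Mapk8 at -0.14, with Mapk3 most abundant at 32.1 CPM per kb. Here 0 reached 0.6 and 5 reached -0.6 (Mapk14 at -0.79, Rps6ka3 at -0.72, Rps6ka1 at -0.71, Atf2 at -0.67 and Elk1 at -0.62). Among 9 thermogenic targets, of which Adrb3 is also one, 5 were above 0 and 4 below (Dio2 lowest at -0.08), and Ucp1, the uncoupling protein, was the most abundant at 5311 CPM per kb. Only Cidea (0.74) reached 0.6 with the members, and Ucp1 (-0.61) reached -0.6. Among 11 heat shock genes, which mark stress of a different kind, 9 were above 0, 0 reached a correlation of 0.6 and 4 reached -0.6 (Hspa8 at -0.67, Hspd1 at -0.66, Dnaja1 at -0.66 and Dnajb1 at -0.65). All 13 genes named at -0.6 or below in these 4 lists had their highest level in ΔGm15551 replicate 2, the mouse lowest in the members, and without it their correlations lay between -0.35 and -0.62. They were chosen after their values were seen. Hspa1a had a log2FC of 0.80 (SE 0.29, unadjusted p = 0.0157, edgeR) and its near-identical copy Hspa1b 0.06, and since reads are split between them by an estimate both are uncertain. Bag3 was lowest at -0.04, and Hspd1 most abundant at 276 CPM per kb.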

How the data were processed

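PolyA RNA-Seq of iBAT from 10 mice was used, 5 per genotype by the labels. The authors quantified reads with salmon after cutadapt, against the transcripts of GENCODE M22 (or these joined with RNAcentral) on GRCm38, per the labels and the methods (tool versions and strand use are not given in the sources used here), and deposited estimated counts per gene, rounded and not scaled. The salmon step shares reads that fit several transcripts.

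The members and gene lists were chosen with earlier results of these data known. The analysis was done with edgeR 4.0.16 (R 4.3.3): filterByExpr (minimum count 10, total 15), TMM, robust glmQLFit and glmQLFTest with genotype as the only term, and Benjamini-Hochberg adjustment over 13732 genes. The authors named DESeq2. SEs came from the F statistic, and log2 CPM had a prior count of 2. Correlations used 100000 permutations (exact with 9 mice). Levels per kb used the exons of GENCODE M21, an earlier release than the authors used, which held 99.5% of the IDs. Whether samples were separate litters is not stated, and p-values measure the spread between these mice. Columns were matched by name, and no pair of libraries within a genotype was a duplicate. Pairs between genotypes were not checked.

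Genes were named by rule: all members, the 10 genes most correlated with their mean, and from each other list (given here for the pathway lists) the highest and lowest log2FC and the highest level per kb. Genes outside this rule that are named for a value were chosen after it was seen. Alternatives included DESeq2 1.42.0, limma-voom (limma 3.58.1), other filters and scalings, leaving out each mouse, a muscle covariate and the replicate block. Scripts were tested on simulated data.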

Additional observations from a re-analysis of the deposited data

Results flagged for a closer look

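In 22 groups of 5 mice, the highest and lowest values were compared with the rest by Dixon's ratio, for which chance alone gives about 1 in 20, or 1.1 groups. One value stood apart. Fosb in ΔGm15551 replicate 1 was at 2.79 CPM, with the nearest ΔGm15551 mouse at 0.460 CPM, a ratio of 0.882 against a critical value of 0.71. On the log2 scale the ratio was 0.615, below that value, so it stood apart on the linear scale only. The same mouse had the highest Egr1 and Atf3 of the 10 and the highest sum of endothelial markers (1670 CPM). Its sum of brown adipocyte markers (23441 CPM) was the lowest, but only just below the 23468 CPM of the lowest wild type mouse. The part of these in its Fosb level was not tested.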

How the results depend on the processing

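Over 21 alternatives, 0 members and 0 genes passed an adjusted p under 0.05 in each, the DESeq2 Wald test and limma-voom included. The count of members at an unadjusted p under 0.05 was 1 with DESeq2, 0 with limma-voom, and 0 in 11 alternatives in all. Leaving out 1 mouse moved the median log2FC between 0.02 and 0.21 and the median SD between 0.373 and 0.487. In the 6 mice with shared replicate numbers, the median was -0.23 with the replicate block and -0.21 without it. There Jun was at -0.13 with the block and -0.079 without, Atf3 at -0.23 and -0.21, Ier2 at -0.17 in both, and Nr4a1 at -0.52 and -0.43, and these signs differ from those over 10 mice. Nr4a3 was at -0.76 and -0.77 there (unadjusted p = 0.0256 and 0.0302, edgeR), the only member under 0.05 in those mice, and Egr1 at 0.40 and 0.53. Same-numbered mice did not deviate together (r = -0.07, 0.05 and -0.40), so the numbers were not taken to pair them. Leaving out 1 mouse moved Fos between -0.23 and 0.12, Ier2 between -0.031 and 0.24, Nr4a3 between -0.54 and -0.085, Nr4a1 between 0.29 and 0.87, Jun between 0.084 and 0.33, Atf3 between 0.016 and 0.21, Junb between 0.13 and 0.30, and Nr4a2 between -0.40 and -0.12. With the 3 wild type mice numbered above 1000 left out, Fos was at -0.48 and Ier2 at 0.30. The members Junb, Egr1, Nr4a2 and Nr4a3 kept their sign in all 21. Egr1 ranged from 0.40 to 1.19. Pairs past the threshold numbered 0 to 3 when 1 mouse was left out, 1 with Spearman rho, and 0 after the fit on skeletal muscle. The cause of these changes was not tested. With 12 to 30 counts per mouse for Fos and 2 to 38 for Fosb, depth limits what could be seen for both.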
